A study of Homo sapiens with 9 samples.

Results

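The study illustrated the small noncoding RNAs (sncRNAs) of K562 cells with sncRNAs that lie within 7 protein-coding genes, and the genes examined here are these 7 hosts: MED13L, ADAM9, ABCA2, CBX2, GTF2H1, WDR11 and KCNT2. They are 7 of 20163 protein-coding genes in the annotation. Every listed sncRNA species with both ends inside the bounds of a host, on either strand, was taken, which gave 1395 of 3688019 species. A species is here a unique combination of start, end and strand. The genes were taken as the study drew them, and no threshold on the values below was used. K562 cells derive from a chronic myelogenous leukemia and have erythroid features. Their RNA came from 3 untreated batches that the authors pooled into 1 list. No value therefore has a replicate error, no test between conditions was possible, and the 95% Wilson intervals given with shares cover counting error only. The cell line was checked against erythroid markers, where 12 of 12 had sense reads of at least 18 nt in their exons. Of the 1470 recovered reads in sum, 867 were from 4 globin genes, and the other 8 genes had 13 to 358 reads each. The lists of kidney epithelium, lymphocytes and fibroblasts, of 4 genes each, summed to 15, 22 and 29 reads, and the median per kb of exon was 14.1 for the erythroid list and 0.105 to 0.475 for these lists.

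Small RNAs in this size range arise by different routes. A miRNA is cut from a hairpin by Drosha and Dicer and is loaded into an Argonaute protein, where bases at its 5′ end (the seed) pair with target mRNAs. Small nucleolar RNAs (snoRNAs) often lie in introns of protein-coding genes and are released from the spliced intron, and a box C/D snoRNA carries short conserved runs of letters called boxes C and D. Other sncRNAs share the strand and position of exons of mRNAs without belonging to an annotated class.

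The 7 examples of the study are placed in different parts of their hosts. Those of MED13L and ADAM9 lie in the coding sequence (CDS), those of ABCA2 and CBX2 in a 3′ UTR, and those of GTF2H1, WDR11 and KCNT2 in introns, the last of them within the hairpin of the miRNA gene MIR4735. The sequences below are shown because each one defines an example. They were read from GRCh37 (hg19) on the strand of the host, with positions counted from 1. Capitals mark the bases that all listed species within 3 nt of the example share, so that lower case letters at an end show where reads of neighbours were shorter or shifted. The sequence of the ADAM9 example is not shown.
MED13L, CDS, chr12:116429177-116429199, minus strand: tTGGGAAGAATTCTGATATTGGt
ABCA2, 3′ UTR, chr9:139902016-139902038, minus strand: TGCCCGGCCTCGGAACCAGCttt
CBX2, 3′ UTR, chr17:77756130-77756151, plus strand: tTTGGCCTTCTCGGGACTGTCc
GTF2H1, intron, chr11:18365157-18365176, plus strand: CATAATGATGAATCCTGAAT
WDR11, intron, chr10:122620834-122620852, plus strand: TACAGGGTGCTTAGGCTTT
KCNT2, intron, chr1:196551584-196551604, minus strand: CCTAATTTGAACACCTTCGGT

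The examples were 19 to 23 nt long, with a median of 21 nt. Each of the 7 sequences had 1 exact match in GRCh37. All 7 were on the strand of their host gene, and no antisense species overlapped any of them. In the ABCA2 cluster all 37 reads began at the same base, and in the CBX2 cluster 13 of 20 reads (65.0%) did, with the others 1 nt to either side.

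The deposited Reads of a species were a whole multiple of its number of near neighbours, meaning the species itself and those of its strand that lie within a total end shift of 3 nt. Division by that number gave the recovered reads used below, and both values are given for each example. Of the 7 examples, 1 was the species of most deposited Reads in its gene, that of CBX2. The example of GTF2H1 ranked 3 of 95 species on both strands and that of MED13L 8 of 580. The example of ABCA2 ranked 16 of 96 and was tied with 1 other species. The examples of KCNT2, ADAM9 and WDR11 ranked 64 of 363, 52 of 141 and 40 of 85, and were tied with 19, 89 and 45 other species. Divided by the number of species in the gene, with ties at their mean rank, the median rank over the 7 examples was 17.2%. The plot of Reads by rank shows the examples along the whole range, from the top of CBX2 to the species of 1 read in ADAM9 and WDR11. The examples are not of 1 kind. The study drew that of KCNT2 as a mature miRNA, and the others as shared with the ENCODE K562 data or found only in its own. It reported the shared sncRNAs as the more abundant, and this status was not used here.

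MED13L encodes a subunit of the kinase module of Mediator, the complex that links transcription factors with RNA polymerase II. Its example lies in exon 17 of 31 of the canonical transcript, and all 9 transcripts at that position have an exon there. It had 95 deposited Reads (76.3 RPKM), from 19 recovered reads and 4 near neighbours besides itself. Among the 57 sense species in the CDS of the gene it ranked first. Its cluster of 7 overlapping species held 26 reads, of which 22 (84.6%) had its 5′ end and 19 (73.1%) its 3′ end. These were 2.80% (1.92–4.08%) of the 927 sense reads of the gene. Of 325 sense clusters, 4 had more reads than this one, and all 4 were intronic. The species of most Reads was a 16-nt intronic sncRNA at chr12:116544215-116544230 with 286 Reads from 143 recovered reads, whose sequence has 2 exact matches in the genome. The second cluster, at chr12:116542000-116542021, held 114 reads and also has 2 exact matches for its representative.

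The third cluster of MED13L by reads was a 30-nt sncRNA in intron 17 that the study also overexpressed. It had 195 deposited Reads (120 RPKM) from 39 recovered reads, had 1 exact match, and ranked 3 of all species of the gene, above the exonic example. Its cluster held 59 reads, 2.27-fold more than that of the exonic example, and 81.4% of them had its 5′ end. Its sequence is shown for comparison with the exonic example, with capitals for the bases that its near neighbours share.
MED13L, intron 17, chr12:116426988-116427017, minus strand: GTGAATGATGTGCGAACCCGGCTTCTGAAc

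ADAM9 encodes a membrane-anchored metalloprotease that sheds the outer domains of other membrane proteins. Its example, of 19 nt at chr8:38873689-38873707 in CDS exon 5 of 22, had 1 deposited read (0.972 RPKM) and no neighbour, so it rested on a single recovered read. The sense strand of the gene held 93 species and 174 reads, and 59 of these species had 1 deposited read as this one did. The CDS was counted without bases that are a UTR in any transcript, which left 0.851 kb. Of its 3 sense species, the example ranked second together with 1 other. The nearest antisense species lay 2 nt away, and the nearest other sense cluster 957 nt away. The species of most Reads in the gene was antisense. It was a 16-nt sncRNA at chr8:38932402-38932417 with 584 Reads from 146 recovered reads and 2 exact matches, and its cluster held 161 of the 223 antisense reads (72.2%). On the sense strand the highest species was also 16 nt long, intronic and with 2 exact matches (chr8:38859632-38859647, 52 Reads, 13 recovered reads). The other sense clusters of most reads held 13 and 12 reads.

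ABCA2 encodes a lipid transporter of endosomal and lysosomal membranes known from myelin-forming glia. Its example lies in exon 49, the last of the canonical transcript, and had 24 deposited Reads (19.3 RPKM) from 4 recovered reads. As drawn, it was not the most abundant species of its own cluster. A species of 22 nt with the same 5′ end, 1 nt shorter at the 3′ end, had 114 deposited Reads (95.7 RPKM) from 19 recovered reads. This 22-nt species is the one at the coordinates that the study's list of overexpressed sncRNAs gives, which differ from the drawn ones by 1 nt, and it ranked 5 of 96 species, against 16 for the drawn one. The cluster had 6 species between 20 and 25 nt long, which differed at the 3′ end only, and 4 of 37 reads (10.8%) ended where the example did. By cluster, this 3′ UTR site ranked 3 of 31 on the sense strand, with 1.49% (1.08–2.04%) of the 2486 sense reads. It was the only cluster with reads in the 3′ UTR, whose 6 species were all of this site.

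The sense reads of ABCA2 lay mostly at 1 other site. A 26-nt sncRNA in intron 28 (chr9:139908202-139908227, minus strand), also overexpressed in the study, had 19308 deposited Reads (13716 RPKM) from 1609 recovered reads and 12 near neighbours including itself. Its cluster of 19 species held 2349 reads, or 94.5% (93.5–95.3%) of the sense reads of the gene and 63.5-fold more than the cluster of the 3′ UTR example. Reads shared its 3′ end (96.0%) more often than its 5′ end (69.9%). Among all protein-coding genes with at least 10 sense reads, 22.4% had at least 50% of these reads in 1 cluster, and of the 7 hosts this held for 1, ABCA2. Without that cluster, 137 sense reads remained in the gene, of which 83.2% lay in exons. The second cluster, in the CDS, was represented by a 17-nt species at chr9:139905072-139905088 with 195 Reads from 39 recovered reads and 2 exact matches. Antisense to ABCA2, the highest species had 21 Reads (16 nt, 3 exact matches) at chr9:139922614-139922629. The lncRNA gene LINC02908 overlaps the host on the antisense strand, and 12 of the 28 antisense species overlapped it.

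CBX2 encodes a chromodomain subunit of Polycomb repressive complex 1, which binds methylated histone H3. It is the shortest of the hosts (9.84 kb) and had the fewest species, 32 sense and 3 antisense. Its example was the highest of all by deposited Reads (36 Reads, 30.2 RPKM, 9 recovered reads). With its 3 near neighbours it formed a cluster of 20 reads, which was 35.7% (24.5–48.8%) of the 56 sense reads of the gene. The next clusters held 6 and 4 reads, so the order below the first rests on few reads. The position was in a 3′ UTR in 1 of the 2 transcripts that span it and in an intron in the other, the canonical one. Of the 32 sense species, 17 lay in a 3′ UTR and 8 in the CDS, where no species had more than 1 Read. The highest antisense species was a 14-nt sncRNA with 3 Reads and 4 exact matches.

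GTF2H1 encodes a subunit of TFIIH, the complex that opens promoter DNA for RNA polymerase II and takes part in nucleotide excision repair. Its example lies in intron 7, 2002 nt from the nearest exon of the canonical transcript. It had 26 deposited Reads (24.0 RPKM) from 13 recovered reads, and a species that starts 1 nt earlier added 3 reads. All 16 reads of the cluster ended at the same 3′ base, and they made up 11.0% (6.86–17.1%) of the 146 sense reads. Among the 33 intronic sense species it ranked first. The sense species of most Reads had 48 Reads, 19 nt at chr11:18354445-18354463, in an exon outside the UTRs and CDS of protein-coding transcripts. It stood alone, with 48 recovered reads at exactly 1 start and end and no species within 3 nt. The third sense cluster, in the CDS, held 10 reads over 5 species. On the antisense strand a 19-nt species at chr11:18359756-18359774 had the most Reads of the gene, 56 from 14 recovered reads.

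WDR11 encodes a beta-propeller protein that acts with FAM91A1 and C17orf75 in vesicle tethering at the trans-Golgi network. Its example, in intron 4 and 1039 nt from the nearest canonical exon, had 1 deposited read (0.972 RPKM) and no neighbour. Of the 49 sense species, 25 had 1 deposited read. The gene held more antisense reads (111) than sense reads (91), although sense species were more numerous (49 against 36). The highest antisense species, of 18 nt at chr10:122621509-122621526, had 102 Reads from 17 recovered reads and 1 exact match. The highest sense species, of 14 nt at chr10:122626037-122626050, had 64 Reads from 16 recovered reads and 4 exact matches. Its cluster held 27 reads, against 6 and 5 in the next sense clusters.

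KCNT2 encodes a sodium-activated potassium channel, and its first intron carries MIR4735. The hairpin spans chr1:196551543-196551611 on the minus strand. The example as drawn is 1 nt shorter at its 3′ end than the mature miRNA from the 5′ arm of the hairpin, whose RefSeq sequence (GRCh38.p14) is shown with the seed in capitals. The mature miRNA of the 3′ arm is shown because no listed species lay on it.
hsa-miR-4735-5p: cCUAAUUUgaacaccuucggua
hsa-miR-4735-3p: aAAGGUGCucaaauuagacau
The example had 4 deposited Reads (3.52 RPKM) from 2 recovered reads. The only other species on the hairpin was 22 nt long, shared the 5′ end and ended 1 nt later, as the mature 5′ arm does, with 2 deposited Reads from 1 recovered read. It lies at the coordinates in the list of overexpressed sncRNAs, which differ from the drawn ones by 1 nt, and at these the rank was 97 of 363 species, against 64 as drawn. Together these 3 reads were 0.584% (0.199–1.70%) of the 514 sense reads of KCNT2. The drawn 21-nt species was longer than 97.2% of the sense species of the gene. The species of most Reads was only 12 nt long, in the CDS at chr1:196311313-196311324, with 990 Reads from 110 recovered reads and 30 exact matches in the genome. Its cluster held 185 reads, 36.0% of the sense reads, and without it 2.43% of the remaining 329 sense reads lay in exons, against 37.5% with it. The next sense clusters, in introns, held 34 and 22 reads. The highest antisense species was a 17-nt sncRNA with 156 Reads and 2 exact matches (chr1:196305707-196305723).

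The share of sense reads in the cluster of the example ranged from 0.575% in ADAM9 to 35.7% in CBX2, with a median of 1.49%. The intervals of CBX2 and GTF2H1 did not overlap each other and lay above those of the other 5 genes. There were 29 sense clusters with 10 or more reads, in which the representative's 5′ end was that of 83.0% of reads (median). The 4 of them that hold an example had 65.0% to 100% of reads at this end, within the range of the others (40.0% to 100%). At the 3′ end, the median was 76.5% for these 4 and 96.0% for the other 25. All 4 were represented by species of 18 nt or longer. The 9 others of that length had medians of 73.5% at the 5′ end and 92.3% at the 3′ end, beside 82.9% and 76.5% for the 4. Clusters of a single species numbered 4 among the 25.

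The letters of box C (TGATGA) followed, without overlap and on the strand of the species, by those of box D (CTGA) were found in the intronic example of GTF2H1, in the most abundant sncRNA of ABCA2 and in the second cluster of MED13L. The search for these letters was chosen after the sequences had been seen. The sequences are shown with the first run of each in capitals.
GTF2H1, intron 7, 13 recovered reads: cataaTGATGAatcCTGAat
ABCA2, intron 28, 1609 recovered reads: agcccTGATGAtgcccactcCTGAgc
MED13L, intron, 87 recovered reads: ccaacaTGATGAaactCTGAct
Among the 447 sense species of 18 nt or longer, 19 (4.25%, 2.74–6.54%) held both runs, in 4 clusters, all of them intronic. The fourth was a 27-nt species of 2 reads in ADAM9. None of the 159 antisense species of that length did. On both strands of the hosts together, the share was 19 of 606 species (3.14%, 2.02–4.84%). Over all 1320648 listed species of 18 nt or longer, also on both strands, 0.647% held both runs. It was 0.608% without species on annotated snoRNA and scaRNA genes. The 19 species are not independent, as 13 of them are variants of the ABCA2 site. Without ABCA2, 6 of 415 sense species (1.45%) held both runs, in 3 clusters. No annotated snoRNA gene covers these positions, and whether these sncRNAs come from a snoRNA was not tested. The only snoRNA gene with a species inside a host was SNORD38, antisense to ADAM9, with 4 species of 1 recovered read each.

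Across the 7 hosts, exons held more sense species per kb than introns. There were 3.06 sense species per kb of exon and 0.717 per kb of intron, a ratio of 4.26 (3.70–4.91, from the Wilson interval of the exonic share). The ratio was 7.10 in CBX2 (2.30–21.9), 5.61 in GTF2H1 (3.49–9.02), 5.52 in KCNT2 (3.37–9.06), 3.62 in WDR11 (2.07–6.30) and 3.60 in MED13L (2.91–4.45). It was 1.99 in ADAM9 (1.27–3.12) and 0.996 in ABCA2 (0.621–1.60). At least a 2-fold higher density in exons was thus seen in 5 of the 7 hosts. It was seen in 67.3% of all protein-coding genes with at least 10 sense species and 1 kb of intron. Their median ratio was 3.13. These ratios count each end variant of a site as a species. In KCNT2, 11 of the 17 exonic sense species belonged to 1 CDS cluster. In ABCA2, 19 of the 32 intronic sense species belonged to 1 cluster. The ratios of both hosts thus depend on single sites, and their values without these clusters were not computed. With 1 representative per cluster, the ratio over the 7 hosts was 3.70. For antisense species the ratio over the 7 hosts was 1.14, with an interval that includes equal density (0.862–1.51). Counted in recovered reads, the sense ratio was 1.71, and it was 4.68 without the intronic cluster of ABCA2.

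Among elements, the sense density over the 7 hosts was 6.45 species per kb in 5′ UTRs, 5.69 in the CDS and 3.39 in 3′ UTRs. It was 1.04 in exons outside the UTRs and CDS of protein-coding transcripts and 0.717 in introns. These values depend on the order of assignment, since bases that are a UTR in any transcript were not counted as CDS. Median lengths of sense species were 21 nt in 3′ UTRs, 18 nt in the CDS and 17 nt in introns. The share of sense species of 18 nt or longer was 80.9% in 3′ UTRs, 55.3% in the CDS and 44.1% in introns. In the CDS this share was 75.4% in MED13L (57 species) and 7.14% in KCNT2 (14 species). The CDS of MED13L had 8.27 sense species per kb and 1 antisense species in 6.89 kb. The 5′ UTR of ABCA2, of 0.154 kb, had 0 sense and 4 antisense species. A cluster of 3 of these species held 15 of their 16 reads, and its highest species has 3 exact matches. This highest species lies within the lncRNA gene LINC02908, on the strand of that gene.

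Of the 1395 species, 500 were antisense to the host (35.8%, 33.4–38.4%), beside 38.6% over all protein-coding genes. The share was lowest in CBX2 (8.57%, 2.96–22.4%) and highest in WDR11 (42.4%, 32.4–53.0%) and KCNT2 (51.0%, 45.8–56.1%). It was between 29.2% and 34.0% in the other 4 genes. Antisense species outnumbered sense species in 1 of the 7 hosts, KCNT2 (185 against 178), beside 20.3% of all protein-coding genes with at least 10 species. By recovered reads the order was different. The antisense share of reads was 56.2% in ADAM9 and 55.0% in WDR11, and 1.86% in ABCA2. These values depended on single sites. Without its highest antisense cluster the share in ADAM9 was 26.3%, and without its highest sense cluster the share in ABCA2 was 25.5%. In WDR11 it was 47.1% without the highest antisense cluster.

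Over the 7 hosts together, fewer antisense than sense species were long. Of the 895 sense species, 49.9% (46.7–53.2%) were 18 nt or longer, against 31.8% (27.9–36.0%) of the antisense species. Over all protein-coding genes these shares were 46.5% and 30.5%. KCNT2, with 185 of the 500 antisense species, did not show this, as 29.7% (23.6–36.7%) of its antisense species were of that length against 27.5% (21.5–34.5%) of its sense species, and in ADAM9 the median was 16 nt on both strands. Between the hosts the sense share was lowest in KCNT2 and reached 73.1% in GTF2H1 (61.5–82.3%). Sequences of different length differed in how far they could be assigned to a host. Of the species of 18 nt or longer, 84.5% had 1 exact match in GRCh37, whereas 6.54% of those under 17 nt did. Of all 1395 species 45.2% had 1 exact match, although the authors kept uniquely mapping reads. In the set with 1 exact match the antisense share was 24.8%. In KCNT2 the species with 1 exact match were divided evenly between the strands, with 62 sense and 62 antisense.

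Most species of the hosts rested on little data. A single recovered read supported 73.8% (71.5–76.1%) of them, beside 74.2% over all protein-coding genes, and 47 species had at least 10 recovered reads. Of the examples, 2 rested on 1 recovered read. By first base, 33.3% of the species began with A, 32.1% with T, 22.3% with C and 12.3% with G, and over all listed species these shares were 30.2%, 31.5%, 24.0% and 14.2%. In sense species per kb of the whole gene the hosts were spread over the range of protein-coding genes, from a percentile of 14.0 for KCNT2 (0.464 per kb) to 88.9 for CBX2 (3.25 per kb).

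Compared with relatives of known shared function, the hosts were not uniformly the higher members. The measure was the number of sense recovered reads per kb of exon, counting species of at least 18 nt, whose median over all protein-coding genes was 1.25. GTF2H1 had 11.7 per kb, above all 8 other TFIIH subunits, which ranged from 1.83 to 8.01 with GTF2H3 the highest. Of its 81 reads, 48 were of the single 19-nt species in an exon outside UTR and CDS. Without that species GTF2H1 had 4.76 per kb, below GTF2H3. CBX2 had 7.05 per kb, and 2 of 11 other members of Polycomb repressive complex 1 were above it, with RING1 the highest at 12.1. Without the cluster of the example, which held 20 of the 40 reads, CBX2 had 3.53 per kb and 7 members were above it. ABCA2 had 3.91 per kb, with 2 of 11 other ABCA transporters above it and ABCA7 the highest at 9.38. The cluster of the example held 37 of its 45 reads, and without it ABCA2 had 0.696 per kb, beside a median of 0.577 for the other transporters, with 5 of them above it. MED13L had 3.68 per kb, and 13 of 32 other Mediator subunits lay above it, of which MED9 had the most (14.7), and without the cluster of the example it had 2.89 per kb and 19 lay above it. WDR11 had 2.43 per kb, below both partners of its complex. ADAM9 had 1.07 per kb and 4 of 8 other ADAM proteases lay above it, led by ADAM10 (3.82). KCNT2 had 0.417 per kb from 3 reads, with 1 of 3 related channels above it, and 2 without its highest site. These values without 1 site were added after the data had been seen. In ADAM9 and WDR11 they left the number of relatives above the host as it was. The site was removed from the host only and relatives kept all of theirs, so the standing of a host could only stay or fall. Abundance of the mRNAs themselves was not measured.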

How the data were processed

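RNA of 3 K562 batches was sequenced by the authors as small RNA, and the reads were aligned to GRCh37 (hg19) with Bowtie2 2.2.9 according to the submitters' processing notes. The deposited Reads were given by the authors as a count per unique alignment, pooled over the batches before deposit. They are not a plain count of reads, as they sum to 718601614 against 47670688 recovered reads. The deposited values were recovered reads multiplied by the number of near neighbours. The deposited RPKM divides Reads by alignment length and by a total of 54140681 reads, so every RPKM given here carries the same factor. The 6 HEK293 samples were not analysed here.

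Species of the 7 hosts were taken by the bounds of GENCODE release 44 on GRCh37. Deposited Reads were divided by the number of near neighbours to give recovered reads, 47670688 in all, and this gave whole numbers for 1246133 of 1246133 species with a neighbour. Species that overlap or touch on a strand formed clusters, represented by the species of highest RPKM. Each species was assigned to 1 element by any overlap, in the order 5′ UTR, 3′ UTR, CDS, other exon, intron, over all transcripts. Exact matches without mismatches were counted on both strands of GRCh37. Reads carry no molecular identifiers, so 95% Wilson intervals cover counting error only. Intervals on counts of species treat overlapping species of 1 cluster as independent, and are narrower than the number of separate sites would give.

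Named are the hosts, and in each the example, the species of most Reads per strand, the 3 sense clusters of most recovered reads, further sncRNAs that the study overexpressed, and annotated small RNA genes with species. Relatives of a host are given by counts, range and highest member. The members and lists were chosen with earlier results of these data known. Alternatives covered the read measure, strand, length, read minimum, cluster representatives, unique sequences, canonical transcripts and listed coordinates. Steps were tested on simulated data. Python 3.11.15, numpy 2.4.6, pandas 2.3.3, scipy 1.17.1, numba 0.67.0 and matplotlib 3.10.9 were used.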

Additional observations from a re-analysis of the deposited data

How the results depend on the processing

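The example of CBX2 was the only one to rank first in its gene under every alternative run for this count, and 3 of the 7 examples remained in exons with canonical transcripts, against 4. The median rank of 17.2% was 5.88% among cluster representatives, 27.0% among species with 1 exact match and 5.21% at the coordinates of the list of overexpressed sncRNAs. The median share of reads in the cluster of the example was 0.718% by deposited Reads, 2.70% for species of 18 nt or longer and 2.27% with 1 exact match. The antisense share of 35.8% was 21.8% by recovered reads, 26.2% at 18 nt or longer, 32.9% with at least 2 recovered reads and 24.8% with 1 exact match. The exon to intron ratio of 4.26 was 1.71 by recovered reads and 7.33 with canonical transcripts. The share of sense species of 18 nt or longer was 73.7% by recovered reads and 84.4% with 1 exact match. Recovered reads without the highest cluster of ABCA2, an alternative chosen after seeing the data, gave an antisense share of 37.5% and a ratio of 4.68. No paired analysis was possible because the values pool the batches, and leaving out a replicate could not be run for the same reason. At this depth, ranks among species of 1 or 2 reads are ties and carry no order. Species under 18 nt mostly match several positions, so their host was not resolved by sequence.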
